A study of Mus musculus with 46 samples.

Results

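Collagens are the main structural proteins of the extracellular matrix, and 3 chains wind into each collagen molecule. The genes examined here were all those with a symbol of the form Col followed by a number, an a and a number, 30 of the 10470 genes measured on the arrays, each read from its probe set with the highest mean over all arrays. Of the 30 genes, 28 passed a filter that asked for a log2 signal over 4 in at least 3 arrays, while Col11a2 and Col13a1 did not and were not tested. A further 14 of the 44 collagen genes in the RefSeq gene table were not analysed here.

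Messenger RNA was profiled in 41 tumors of the mouse mammary gland, from 8 engineered models, and in 5 normal glands, with 1 array for each. The basal-type models were C3TAg (n = 5, FVB strain), which expresses the SV40 T antigens from the C3(1) promoter, p53-/- (n = 7, Balb/C), in which MMTV-cre removes floxed p53 and gland tissue is transplanted, and Brca1-/-p53+/- (n = 5, 129B6/FVB), in which MMTV-cre removes floxed Brca1 in mice with a single p53 allele. The luminal-type models were MMTV-Hras (n = 5), MMTV-H2N (n = 5, Her2/neu), MMTV-C-Myc (n = 4), MMTV-PymT (n = 6, polyoma middle T antigen) and MMTV-Wnt (n = 4), all on FVB, in which the MMTV promoter drives the gene named. MMTV is often active in mammary epithelium and also at other sites. The normal glands came from pregnant FVB mice. Values are log2 GC-RMA signals, a ± is an SD over arrays, and a call is a Benjamini-Hochberg adjusted p under 0.05 from limma over 9318 genes.

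In tissue, types I, III and V form the banded fibrils of stroma, and type VI forms beaded filaments around cells. Type IV makes the sheet of the basement membrane, on which mammary epithelium sits, with types VII and XVII anchoring that sheet to the stroma and to the cell. Types IX, XII, XIV and XVI attach to the surface of fibrils and are called FACIT collagens, and types II, IX and XI are best known from cartilage. Types XV and XVIII, the multiplexins, lie at basement membranes and release fragments such as endostatin.

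Several arrays stood apart. The mean level of 9 luminal epithelial markers lay between 10.91 and 12.10 in the glands and at 8.89, 5.69 and 4.52 in Brca1-/-p53+/- tumors 2, 3 and 4, and at 6.35 in MMTV-Wnt tumor 3. The next lowest tumor had 10.09. Brca1-/-p53+/- tumor 2 also carried skeletal muscle markers at 13.92 and adipocyte markers at 12.95. In the 5 glands the muscle markers ranged from 5.50 to 13.12 and the adipocyte markers from 11.18 to 12.29. In pieces of whole tissue, fewer cells of a type cannot be told apart from less RNA in each cell.

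Collagens of types I, III, V and VI lay mostly below the glands in the tumors of 3 luminal-type models, MMTV-Hras, MMTV-H2N and MMTV-PymT. They were mixed in the other models. For 9 chains of these types the count of chains outside the range of the 5 glands was taken in each tumor. The fibrillar genes Col2a1 and Col11a1 were not among the 9 chains. Col11a1 went the other way, above every gland in all MMTV-H2N and MMTV-PymT tumors. In MMTV-Hras tumors 1 to 5 it was 9, 9, 6, 9 and 9 chains below every gland, in MMTV-H2N tumors 9, 8, 6, 5 and 9, and in MMTV-PymT tumors 9, 8, 9, 6, 7 and 9. A single chain in a single tumor of these 3 models, MMTV-PymT 4, lay above every gland. Brca1-/-p53+/- tumors 1 to 4 had 9, 8, 9 and 9 chains above every gland and 0 below, whereas tumor 5 had 0 above and 8 below. The p53-/- tumors held 8, 0, 1, 9, 3, 8 and 9 chains above every gland and 1, 1, 1, 0, 1, 1 and 0 below. C3TAg tumors held 3, 1, 7, 8 and 0 above and 1, 5, 0, 1 and 3 below. MMTV-C-Myc tumors held 7, 3, 8 and 0 above and 1, 1, 0 and 6 below, and MMTV-Wnt tumors 4, 0, 9 and 7 above and 2, 6, 0 and 0 below. Single tumors of these models, C3TAg 2, MMTV-C-Myc 4, MMTV-Wnt 2 and Brca1-/-p53+/- 5, thus had as many chains below the glands as some tumors of the 3 models named first. Over all genes tested a tumor had between 24.8% and 43.0% above every gland and between 23.8% and 37.8% below.

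**Figure D1:**
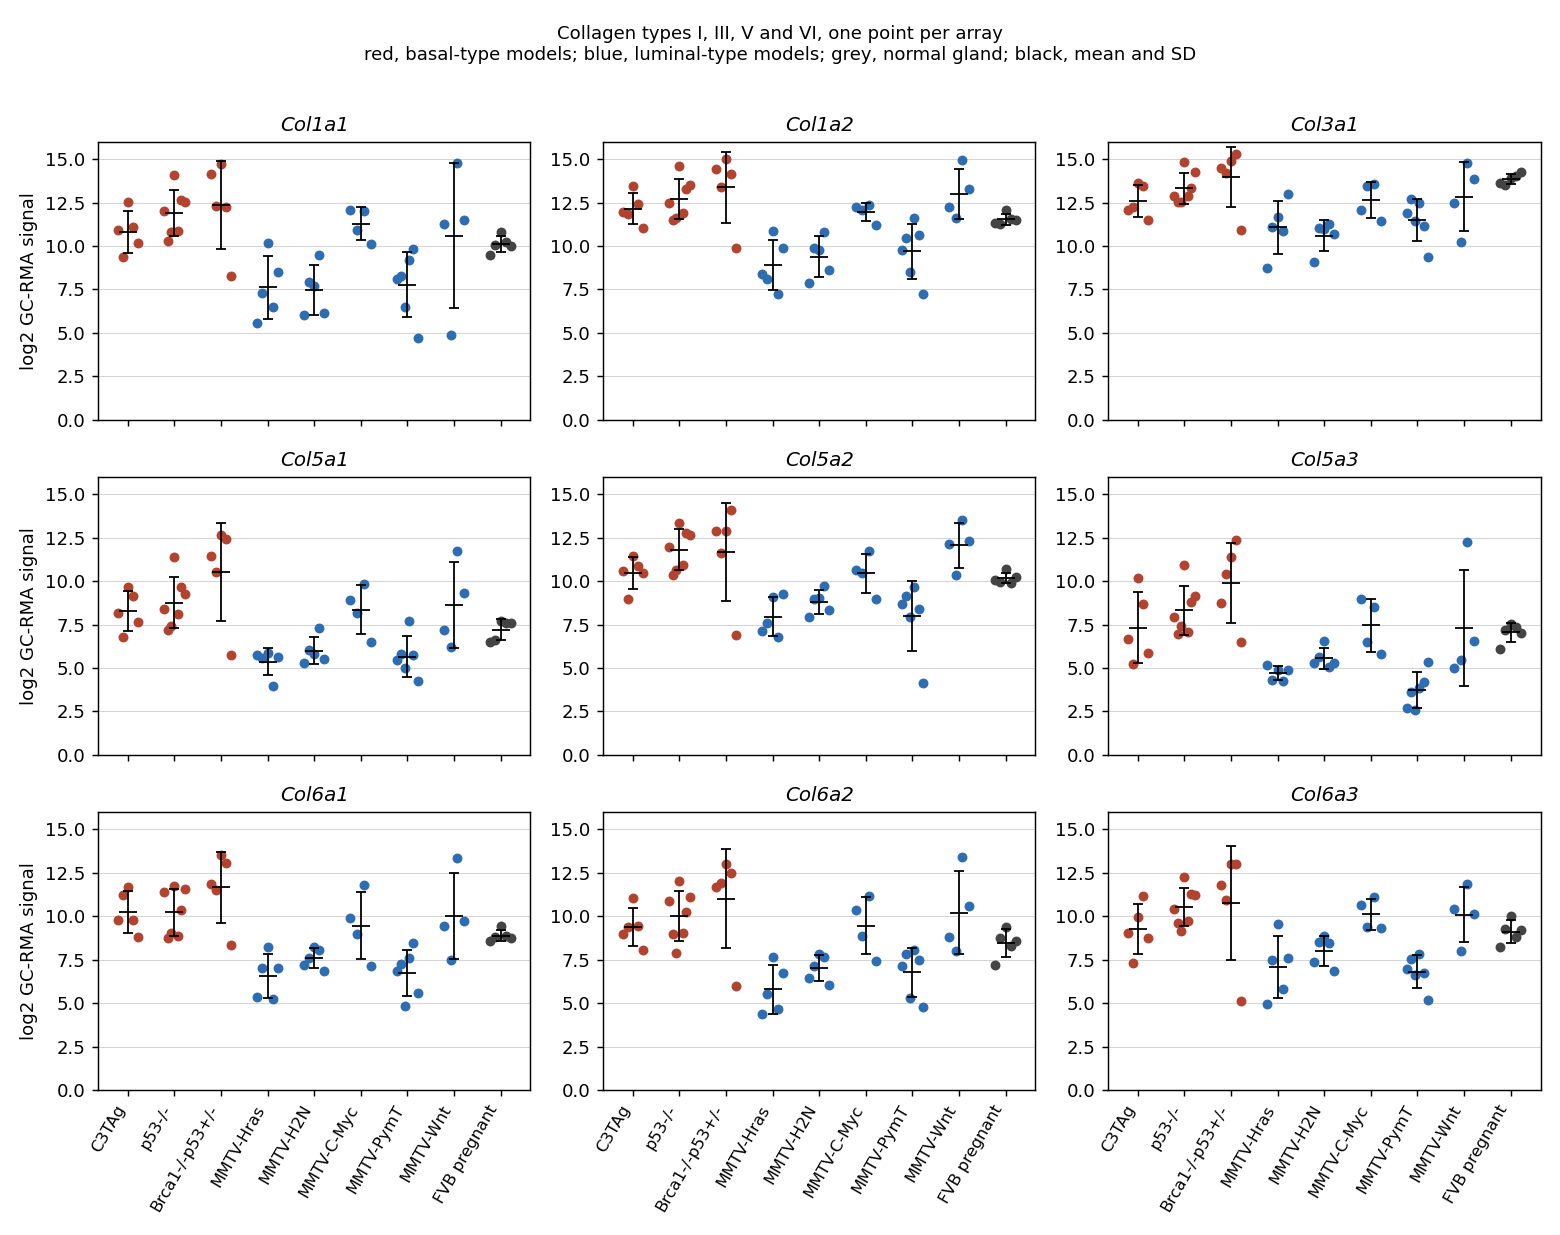
Log2 GC-RMA signal (vertical axis) of 9 chains of collagen types I, III, V and VI in all 46 arrays, with tumor models and glands along the horizontal axis, with 1 point per array, the mean as a black bar and the SD as whiskers. MMTV-Hras, MMTV-H2N and MMTV-PymT have the lowest means in every panel, and Brca1-/-p53+/- tumor 5 lies well below the other tumors of its model, for example at 5.12 for Col6a3.

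Type I collagen is the most abundant fibrillar collagen, made of chains from Col1a1 and Col1a2. Col1a1 was 9.48, 10.08, 10.78, 10.24 and 9.99 in the glands. It reached 14.17, 12.30, 14.71, 12.24 and 8.26 in Brca1-/-p53+/- tumors, and its lowest, median and highest values in p53-/- tumors were 10.31, 12.00 and 14.10. The MMTV-Hras values of 5.60, 7.27, 10.20, 6.51 and 8.53 and the MMTV-H2N values of 6.05, 7.92, 7.71, 9.50 and 6.16 lay mostly under the glands, and PymT tumors had a median of 8.20 (4.73 to 9.83). MMTV-Wnt was the least uniform model, with 11.24, 4.85, 14.80 and 11.49. Col1a2, the partner chain, had group means from 8.90 ± 1.45 in MMTV-Hras to 13.37 ± 2.04 in Brca1-/-p53+/-, with the glands at 11.53 ± 0.31.

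The stretch of DNA before Col1a2 and Col3a1 is shown because both genes were called between the tumor classes described next. The sequences are the bases up to the start of the RefSeq transcript on build GRCm38.p6, plus strand, chr6:4505368-4505617 for Col1a2 and chr1:45311288-45311537 for Col3a1, with capitals for motifs that were searched on both strands. The CCAAT box was searched by these 5 letters. For the GC box the letters were GGGCGG. A motif of the TATA kind was searched as TATAAA.

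Col1a2: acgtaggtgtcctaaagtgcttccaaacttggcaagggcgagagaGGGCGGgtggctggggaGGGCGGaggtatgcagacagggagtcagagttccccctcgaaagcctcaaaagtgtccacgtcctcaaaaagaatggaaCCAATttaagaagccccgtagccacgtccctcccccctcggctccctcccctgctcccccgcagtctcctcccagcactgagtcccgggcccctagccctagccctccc

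Col3a1: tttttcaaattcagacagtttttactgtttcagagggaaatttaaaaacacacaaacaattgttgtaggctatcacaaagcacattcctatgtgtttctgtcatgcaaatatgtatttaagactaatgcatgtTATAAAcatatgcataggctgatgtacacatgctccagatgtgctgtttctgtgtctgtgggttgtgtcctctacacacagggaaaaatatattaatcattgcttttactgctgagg

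The Col1a2 window held a CCAAT match that began 109 bases before the start and GC boxes at 205 and 188, while the Col3a1 window held only a TATAAA match at 117. Among all 32851 windows of 250 bases in the table, 33.8% held CCAAT on either strand, 32.7% held a GC box and 12.4% held TATAAA. Windows existed for 24 of the 30 collagen genes, of which 11 held CCAAT, 14 a GC box and 4 TATAAA. The motifs do not overlap each other, and a match is a run of letters rather than a shown site.

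Col3a1, the chain of type III collagen that is mixed into type I fibrils, was the member that fell against the glands. The glands had 13.61, 13.51, 13.94, 14.02 and 14.25. MMTV-H2N tumors had 9.07, 11.03, 10.97, 11.27 and 10.66 and MMTV-Hras tumors 8.75, 11.10, 11.66, 10.86 and 13.00, so neither overlapped the glands. Values above the highest gland were found only in p53-/- tumors 4 and 7, MMTV-Wnt tumor 3 and Brca1-/-p53+/- tumors 1, 3 and 4. The mean of the 8 models was 12.32 against 13.87 in the glands (log2 difference -1.55, SE 0.56, limma adjusted p = 0.0252). Without gland 3, 4 or 5 the adjusted p became 0.0569, 0.0565 or 0.0649, with differences of -1.53, -1.51 and -1.45.

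Type V collagen is built into type I fibrils and limits their width. Its chain gene Col5a3 differed widely between models, with 8.75, 10.39, 11.38, 12.35 and 6.52 in Brca1-/-p53+/- tumors, against 2.58 to 5.37 with a median of 3.73 in MMTV-PymT tumors and 6.11 to 7.56 in the glands. All MMTV-PymT tumors lay below all glands. Col5a1 was 10.54 ± 2.82 in Brca1-/-p53+/- and 5.35 ± 0.78 in MMTV-Hras, the highest and lowest group means, with glands at 7.21 ± 0.59. Col5a2 ran from 7.96 ± 1.15 in MMTV-Hras to 12.07 ± 1.30 in MMTV-Wnt.

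Type VI collagen followed suit in all 3 chain genes. Col6a1 was 5.33, 7.00, 8.24, 5.23 and 7.03 in MMTV-Hras, all under the lowest gland at 8.56, and 11.86, 11.49, 13.53, 13.06 and 8.36 in Brca1-/-p53+/-. Col6a2 means ran from 5.78 ± 1.39 in MMTV-Hras to 11.02 ± 2.85 in Brca1-/-p53+/-, and Col6a3 means from 6.81 ± 0.93 in MMTV-PymT to 10.77 ± 3.28 in Brca1-/-p53+/-. The large SD of Brca1-/-p53+/- came with its tumor 5, at 6.01 for Col6a2 and 5.12 for Col6a3 against 10.93 or more in the other 4 tumors for both genes. Fibroblast markers averaged 3.78 in that tumor and 8.38, 10.05, 8.93 and 8.54 in the others.

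The first comparison asked how basal-type tumors (n = 17) differ from luminal-type tumors (n = 24). Of 28 collagen genes, 13 had higher and 3 had lower signals in the basal-type class, whereas 16.0% of all genes tested were higher and 12.0% lower. The median difference was 1.30 over the collagen genes and 0.06 over all genes. By class, 6 of 8 fibrillar genes were higher (median 2.23), as were 3 of 3 type VI genes (median 2.49). Of 5 basement membrane genes 1 was higher and 1 lower, and of 7 FACIT genes 1 was higher and 2 lower. Col8a1, the sole network member tested, and 1 of the 2 multiplexins, Col18a1, completed the higher genes.

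**Figure D2:**
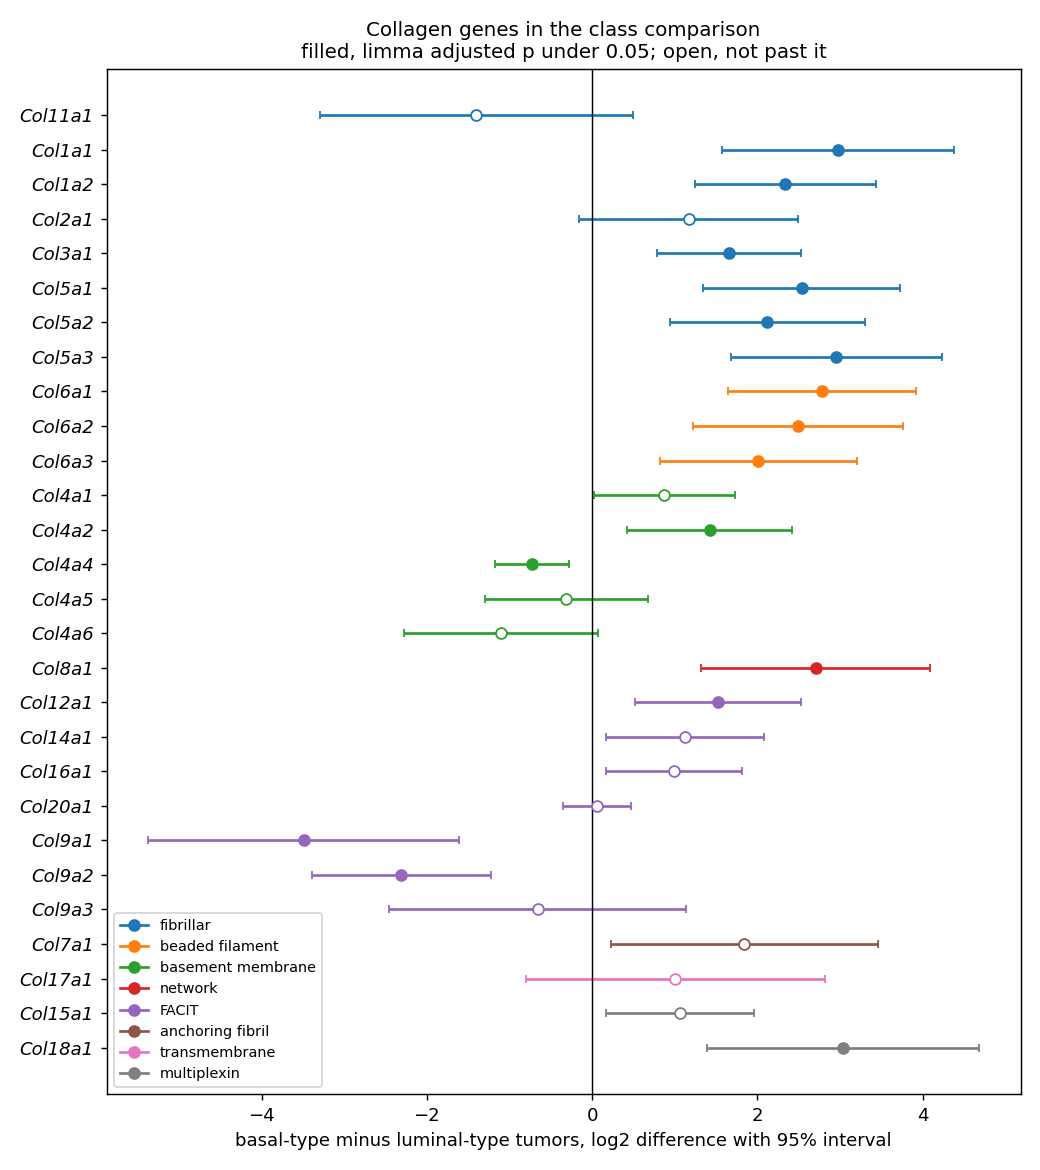
Log2 difference between basal-type and luminal-type tumors (horizontal axis, with the 95% interval as a bar) for 28 collagen genes grouped by class (vertical axis), with filled points for limma adjusted p under 0.05. Fibrillar and type VI genes lie to the right of 0, up to 2.97 for Col1a1, except Col11a1 at -1.40, and Col9a1 lies furthest to the left at -3.49.

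Among the fibrillar genes Col1a1 was 11.71 against 8.73 (7.86-fold, SE 0.70 log2, limma adjusted p = 0.00174) and Col5a3 was 8.48 against 5.53 (7.77-fold, SE 0.63, adjusted p = 0.000774). Differences of Col5a1 (2.53, SE 0.59), Col1a2 (2.34, SE 0.54), Col5a2 (2.12, SE 0.59) and Col3a1 (1.66, SE 0.43) had adjusted p of 0.00166, 0.00163, 0.00631 and 0.00424. A second Col1a1 probe set gave 1.34 and was not called. For type VI, Col6a1 was 6.88-fold higher (difference 2.78, SE 0.56, adjusted p = 0.000443), Col6a2 differed by 2.49 (SE 0.63, adjusted p = 0.00336) and Col6a3 by 2.01 (SE 0.59, adjusted p = 0.00967). The classes overlapped for each of these 9 chains. MMTV-Wnt tumor 3 was high and Brca1-/-p53+/- tumor 5 low, but the overlap did not rest on them alone. Col1a1, for example, was 12.05 and 12.04 in MMTV-C-Myc tumors 1 and 3 and 9.35 in C3TAg tumor 2.

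Outside these types, Col18a1 had a larger difference of 3.03 (SE 0.82, limma adjusted p = 0.00537) and Col8a1, a network-forming chain of vessel walls, one of 2.71 (SE 0.69, adjusted p = 0.00334). A second Col8a1 probe set, at a mean of 2.52 and so near the floor of the method, was not called. Col12a1, a FACIT chain of dense connective tissue, differed by 1.53 (SE 0.50, adjusted p = 0.0193) and Col4a2 by 1.42 (SE 0.50, adjusted p = 0.0283). Col4a2 lost its call without p53-/- tumor 7 (1.27, adjusted p = 0.0511), without Brca1-/-p53+/- tumor 4 (1.30, adjusted p = 0.0508) with the replicate number as a block (1.33, adjusted p = 0.0523) and without the 4 tumors of low luminal marker level (1.18, adjusted p = 0.0834). Lower genes were Col9a1 (-3.49, SE 0.93, adjusted p = 0.00498), Col9a2 (-2.31, SE 0.54, adjusted p = 0.00163) and Col4a4 (-0.73, SE 0.22, adjusted p = 0.0132).

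The limma p values above count each tumor as an independent sample. When the model entered as a random block, limma called 0 of the 28 genes, 10 of them higher and 3 lower at an unadjusted p under 0.05, and 19 higher and 30 lower of all 9318 genes. The adjusted p of Col6a1 was then 0.119 and that of Col1a1 0.199, with differences of 2.69 and 2.81. Among FVB tumors alone, where C3TAg is the whole basal-type class, 4 of 27 genes tested (14.8%) were higher and 0 lower (3 lower at an unadjusted p under 0.05), against 19.1% of all genes higher and 8.91% lower. The 4 genes were Col8a1 (3.07), Col6a1 (2.37), Col4a6 (2.13) and Col16a1 (1.67). There Col1a1 differed by 2.07 (adjusted p = 0.179), and Col4a6 had turned from -1.10 over all tumors. Strain and class cannot be told apart for the p53-/- and Brca1-/-p53+/- models. Without the 4 tumors of low luminal marker level, 12 genes were higher and 3 lower.

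The next lists of genes were read in the class comparison with each tumor as an independent sample. Their counts were not taken with the model as a random block or among FVB tumors alone. Fibroblast markers tended to be higher in the basal-type class, although those of MMTV-Wnt, a luminal-type model, were not low. Of 11 markers 6 had higher and 0 had lower signals in the basal-type class, led by Thy1 (2.55), Pdgfra (2.49) and Serpinf1 (2.06). Their mean level per array ranged from 3.36 to 5.06 in MMTV-H2N, 3.70 to 5.51 in MMTV-Hras and 3.55 to 6.36 in MMTV-PymT, against 5.75 to 8.65 in p53-/-, 5.79 to 6.91 in C3TAg, 3.78 to 10.05 in Brca1-/-p53+/-, 4.75 to 7.39 in MMTV-C-Myc, 5.88 to 9.27 in MMTV-Wnt and 7.46 to 8.70 in the glands. The part of fibroblast content in the collagen differences was not tested. Of other cell lists, 2 of 10 endothelial, 2 of 7 mural, 2 of 9 macrophage and 1 of 9 myoepithelial markers were higher. Of 9 luminal markers 1 was higher and 1 lower, as were 1 and 1 of 9 cartilage markers. No adipocyte, skeletal muscle or keratinised epithelium marker was called (0 of 6, 0 of 10 and 0 of 3). Over all genes 16.0% were higher and 12.0% lower, so most counts of these other lists stand near or under that share.

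Genes that make, process and bind collagen were read beside the chains and beside the 16.0% higher and 12.0% lower of all genes. Of 17 genes of collagen biosynthesis 5 had higher and 1 had lower signals in the basal-type class. P4ha2 (2.81) and P4ha1 (1.84) encode prolyl hydroxylases that stabilise the triple helix, and Creb3l1 (-2.74) a transcription factor that acts on collagen genes. Of 8 genes of procollagen processing and cross-linking 5 were higher and 0 lower, with Pcolce (2.94), which enhances removal of the C-propeptide, and the cross-linking oxidases Lox (2.37) and Loxl1 (2.30). Of 7 receptor and uptake genes 4 were higher and 0 lower, among them Antxr1 (3.62), Mrc2 (2.25), an endocytic collagen receptor, and Ddr2 (1.54), a kinase activated by fibrillar collagen. Of 7 fibril-associated proteoglycans only Bgn, which encodes biglycan, was called (2.37), a share near that of all genes.

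The second comparison set the tumors against the normal gland. With each model weighted equally, 7 of 28 collagen genes were higher and 1 lower in tumors, while 24.2% of all genes were higher and 17.1% lower, so the share of higher members was close to that of all genes. The median difference was 0.22 over the collagen genes and 0.20 over all genes. Higher genes were Col11a1, Col9a3, Col9a2, Col18a1, Col8a1, Col4a6 and Col16a1, and the lower gene was Col3a1. Neither type I chain (-0.14 and -0.13) nor a type VI chain (0.18, 0.27 and -0.03) was called, with models on both sides of the gland.

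The largest difference belonged to Col11a1, a fibrillar chain that forms the core of cartilage fibrils. Its glands read 2.56, 2.68, 2.34, 3.98 and 3.22, near the floor of GC-RMA. MMTV-H2N tumors read 13.02, 12.42, 12.81, 11.66 and 12.11, MMTV-PymT tumors 9.75 to 11.45 with a median of 10.76, and C3TAg tumors 11.64, 7.42, 10.42, 11.93 and 11.34, all above every gland. The values of p53-/- tumors spread from 2.42 through a median of 5.61 to 10.52, and single tumors at gland level were also present in Brca1-/-p53+/- (tumor 2, 2.61), MMTV-Hras (tumor 5, 3.09) and MMTV-Wnt (tumor 3, 3.02). The mean of the models was 9.08 against 2.96 (difference 6.13, SE 1.10, limma adjusted p = 1.89e-05), and a second probe set gave 4.16 and was called as well.

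Type IX collagen sits on cartilage fibrils and needs a chain from each of Col9a1, Col9a2 and Col9a3. Col9a3 read 2.30 to 2.42 in the 5 glands and 7.70 or more in all MMTV-Hras, MMTV-H2N, MMTV-C-Myc, MMTV-PymT and C3TAg tumors. It was at gland level in p53-/- tumors 3 and 4 (2.25 and 2.04), Brca1-/-p53+/- tumors 2, 3 and 4 (2.26, 2.28 and 2.25) and MMTV-Wnt tumor 3 (2.25). The difference of the models from the gland was 5.99 (SE 1.23, limma adjusted p = 0.000133). Of its other probe sets, one was called with 2.54 and a cross-hybridizing one, near the floor, was not called (-0.21).

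Col9a2 read 3.63, 3.65, 2.46, 3.66 and 3.06 in the glands and 7.54, 8.67, 8.88, 9.95 and 7.01 in MMTV-Hras tumors. The MMTV-H2N and MMTV-PymT tumors, at 7.13 to 8.70 and 6.84 to 8.27, also lay above all glands, whereas Brca1-/-p53+/- tumors 1 to 4 stayed between 3.19 and 3.60. The mean of the models differed from the gland by 3.20 (SE 0.73, limma adjusted p = 0.000509). Col9a1, in contrast, was already 11.27 to 13.16 in the glands. It was 14.68, 14.55, 14.56, 14.23 and 14.38 in MMTV-H2N, above every other array, and 13.07 to 13.55 in MMTV-PymT.

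In single tumors of 4 models Col9a1 was far lower, at 2.54 and 4.15 in Brca1-/-p53+/- tumors 3 and 4, 2.78 in p53-/- tumor 3, 3.94 in MMTV-Hras tumor 5 and 3.94 in MMTV-Wnt tumor 3. The last of these had the highest Col1a1 value of all arrays. Luminal epithelial markers were low in 3 of these 5 tumors and lay between 10.54 and 12.19 in the p53-/- and MMTV-Hras models. The mean level of 11 cartilage markers, 9 of them past the filter, ranged from 3.08 to 3.65 in the glands, 4.29 to 5.11 in MMTV-H2N, 4.21 to 4.93 in C3TAg, 3.41 to 4.20 in MMTV-PymT and 2.75 to 4.65 in p53-/-. It ranged from 3.41 to 5.40 in MMTV-Hras, 3.11 to 5.37 in MMTV-Wnt, 3.66 to 5.16 in Brca1-/-p53+/- and 2.97 to 4.77 in MMTV-C-Myc, and 1 of 9 markers, Chad, was higher (2.24) and 1, Hapln1, lower (-0.69) in the models than in the glands. The part of such cells in the type IX and XI values was not tested.

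**Figure D3:**
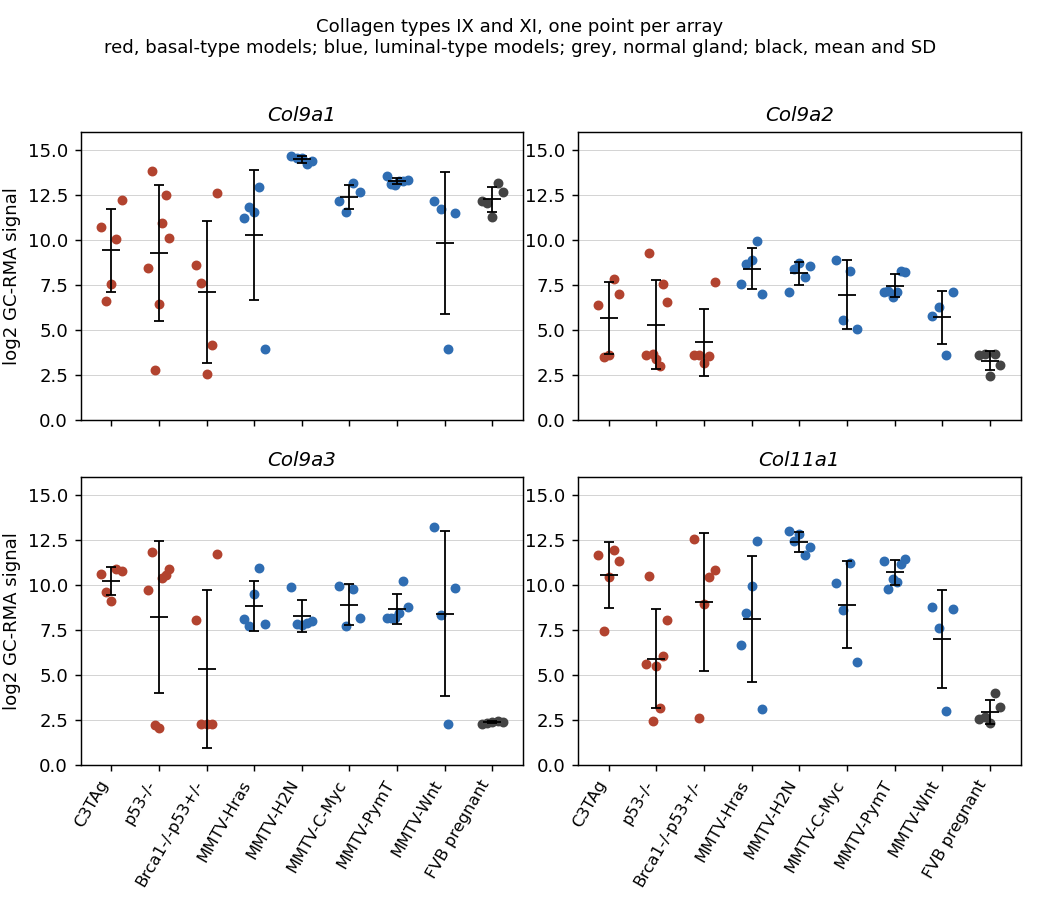
Log2 GC-RMA signal (vertical axis) of the 3 type IX chains and of Col11a1 in all 46 arrays, with tumor models and glands along the horizontal axis, with 1 point per array, the mean as a black bar and the SD as whiskers. The glands lie near 2 to 4 for Col9a2, Col9a3 and Col11a1 and at 11.27 to 13.16 for Col9a1, and single tumors of the p53-/-, Brca1-/-p53+/-, MMTV-Hras and MMTV-Wnt models drop to 2.54 to 4.15 for Col9a1.

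The bases before Col11a1 and Col9a2 are shown since both genes were near the floor in the glands and high in most models. They lie on the plus strand of GRCm38.p6, chr3:114030290-114030478 for Col11a1, which stops where the gene begins in the RefSeq gene table, and chr4:121039316-121039565 for Col9a2, with the same motifs in capitals.

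Col11a1: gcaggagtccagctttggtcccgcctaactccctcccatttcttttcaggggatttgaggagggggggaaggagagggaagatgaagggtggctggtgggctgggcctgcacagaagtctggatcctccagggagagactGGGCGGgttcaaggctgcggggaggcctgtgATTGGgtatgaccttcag

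Col9a2: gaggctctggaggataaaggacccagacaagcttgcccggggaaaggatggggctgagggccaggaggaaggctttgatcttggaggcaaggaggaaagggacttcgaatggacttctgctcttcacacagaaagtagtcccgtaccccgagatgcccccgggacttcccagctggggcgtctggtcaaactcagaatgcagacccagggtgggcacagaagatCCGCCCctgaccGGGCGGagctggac

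The printed Col11a1 stretch held a GC box that began 110 bases before the start used in the table and a CCAAT match on the minus strand at 79. Col9a2 held GC boxes at 26 and 14, on opposite strands, and neither CCAAT nor TATAAA.

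Among the other fibrillar and FACIT genes, Col2a1, the main cartilage collagen, was at 2.09 to 2.32 in all glands and in most tumors. It reached 9.06 and 7.21 in p53-/- tumors 2 and 6, 8.39 in Brca1-/-p53+/- tumor 1, 8.36 and 6.98 in C3TAg tumors 5 and 4, 7.95 in MMTV-C-Myc tumor 3, 7.22 in MMTV-PymT tumor 5 and 5.79 in MMTV-Hras tumor 2, and it did not differ between models by the F test (adjusted p = 0.508). Col12a1 was 4.10 to 4.83 in the glands and peaked at 11.58 in MMTV-Wnt tumor 3. Col16a1 was higher in the models than in the glands by 1.22 (SE 0.47, limma adjusted p = 0.033), a call lost without gland 1 (1.26, adjusted p = 0.0553), 2 (0.97, adjusted p = 0.141) or 3 (1.22, adjusted p = 0.0661), after quantile normalization (1.06, adjusted p = 0.06) and after centring on the median (1.02, adjusted p = 0.0671). Col14a1 ranged from 5.85 ± 0.69 in MMTV-H2N to 9.11 ± 1.92 in MMTV-Wnt, and Col20a1 passed 4 in 3 arrays.

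Basement membrane chains did not move as a block. Type IV genes stand head to head on their chromosomes. RefSeq places the starts of Col4a1 and Col4a2 21 bases apart on chromosome 8, on opposite strands, and those of Col4a6 and Col4a5 1343 bases apart on the X chromosome. Col4a1 and Col4a2, whose chains make the common basement membrane trimer, had their lowest group mean in MMTV-PymT. Col4a1 was 7.96 to 11.16 with a median of 9.50 there, against 11.45 to 12.11 in the glands, with no overlap. It was 13.68, 13.67, 12.40 and 13.63 in MMTV-Wnt, above all glands. Col4a2 read 4.68 to 8.44 in MMTV-PymT and 12.16, 11.46, 10.51 and 10.78 in MMTV-Wnt, against 8.97 to 10.16 in the glands, again without overlap.

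The other pair did not behave alike. Col4a6 was 10.55, 9.50, 9.39, 9.29 and 8.85 in C3TAg, all above every gland (4.35 to 5.72), and lay between 3.24 and 5.27 in p53-/-, where 5 of 7 tumors lay below every gland. The models together differed from the glands by 1.99 (SE 0.40, limma adjusted p = 0.0001). Col4a5 differed by 1.24 (SE 0.66, adjusted p = 0.133), although a second probe set was called with 2.33, and the F test over models did not call it (adjusted p = 0.118). Col4a4, which with Col4a3 and Col4a5 forms the kidney type of trimer, was highest in MMTV-Hras, at 5.89, 5.66, 4.36, 3.45 and 5.78.

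**Figure D4:**
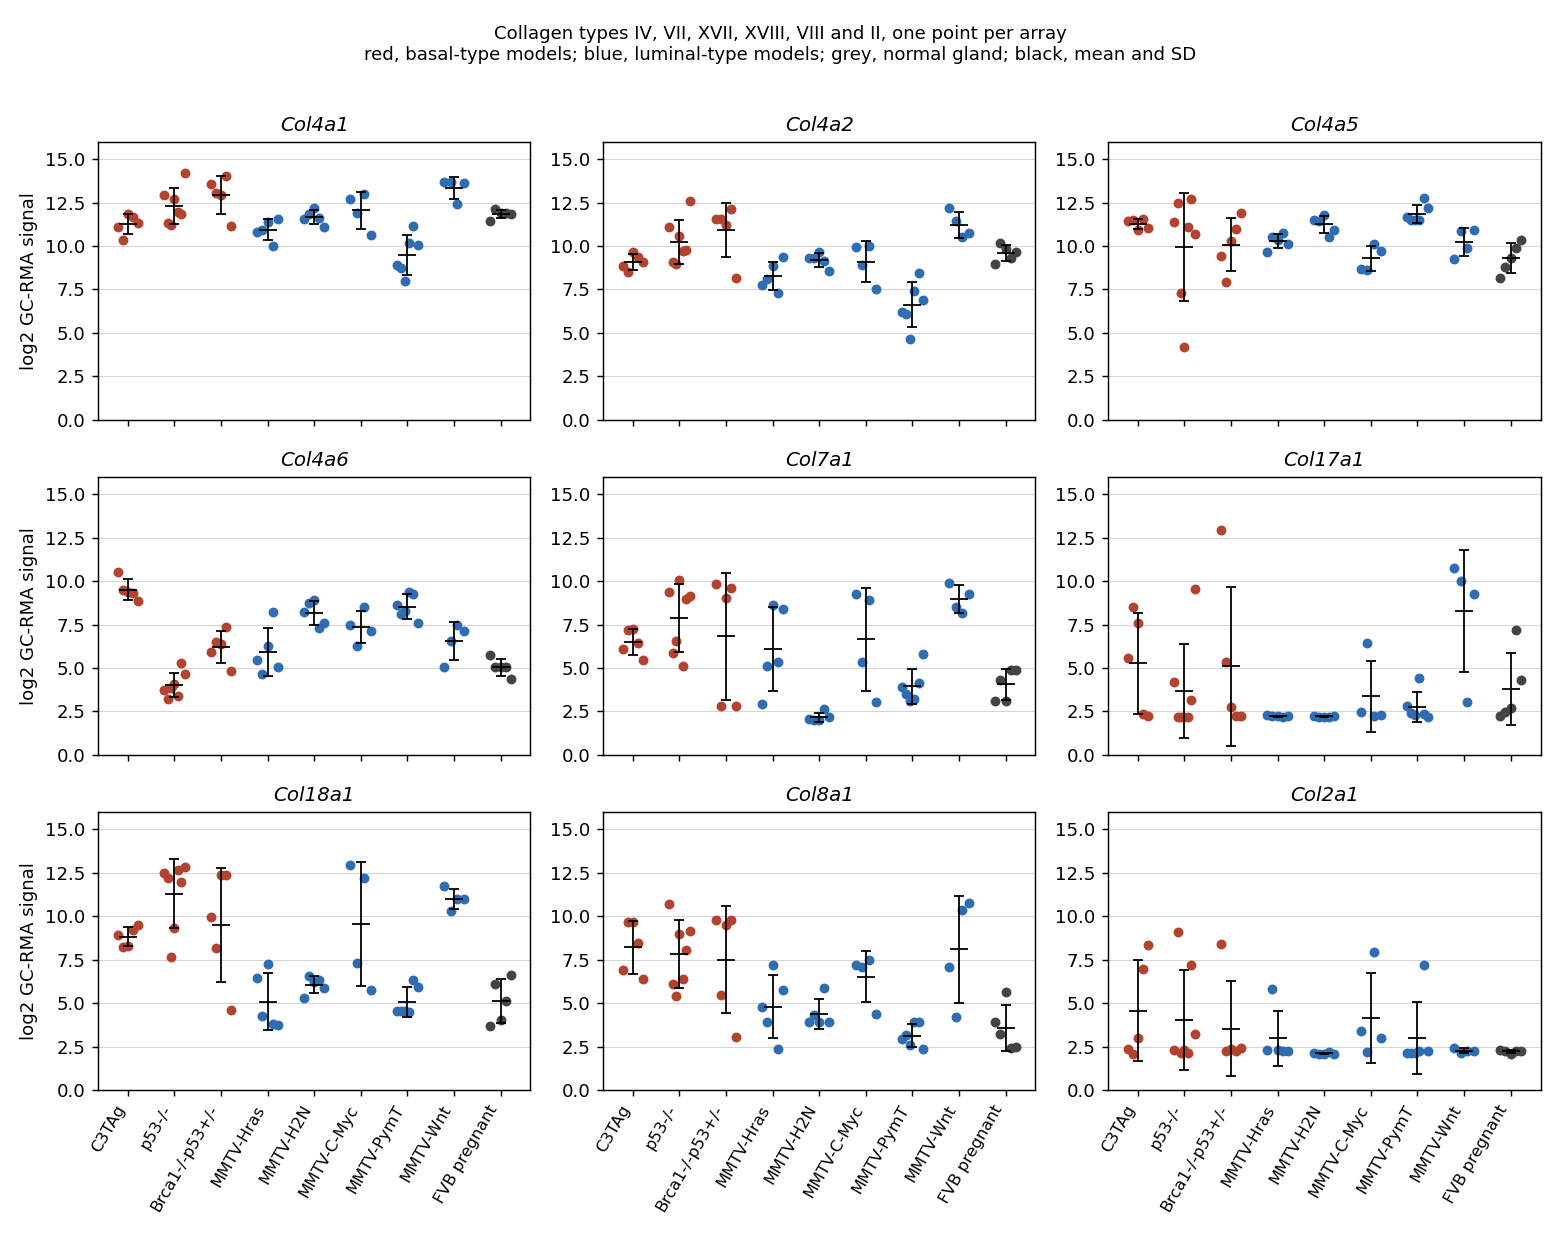
Log2 GC-RMA signal (vertical axis) of Col4a1, Col4a2, Col4a5, Col4a6, Col7a1, Col17a1, Col18a1, Col8a1 and Col2a1 in all 46 arrays, with tumor models and glands along the horizontal axis, with 1 point per array, the mean as a black bar and the SD as whiskers. Col4a6 is highest in C3TAg (8.85 to 10.55), Col7a1 stays at 2.01 to 2.63 in MMTV-H2N, and Col17a1 is at 9.25 or more in 3 of 4 MMTV-Wnt tumors.

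Col18a1, the source of endostatin, was among the most variable members. It was 3.69, 6.10, 4.03, 5.13 and 6.60 in the glands, 11.74, 10.31, 10.97 and 10.98 in MMTV-Wnt and 7.67 to 12.81 with a median of 12.19 in p53-/-. MMTV-PymT tumors stayed at 4.51 to 6.35 and overlapped the glands. MMTV-C-Myc split into tumors at 12.93 and 12.19 and tumors at 7.30 and 5.73. The models differed from the glands by 3.19 (SE 0.85, limma adjusted p = 0.00251). Its relative Col15a1 ran from 2.96 ± 0.59 in MMTV-PymT to 6.17 ± 1.83 in Brca1-/-p53+/-. Col8a1 differed from the glands by 2.77 (SE 0.86, adjusted p = 0.00876), with 6.38 to 9.65 in C3TAg against 2.40 to 5.64 in the glands. Its second probe set, near the floor, gave 0.51 and was not called.

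Col7a1 forms the anchoring fibrils beneath epithelia. It was 9.91, 8.53, 8.14 and 9.28 in MMTV-Wnt, 3.11 to 4.90 in the glands and 2.05, 2.01, 2.02, 2.63 and 2.17 in MMTV-H2N, with no overlap between the 3 groups. Col17a1, a hemidesmosome protein of basal epithelial cells, was 10.76, 9.99, 3.07 and 9.25 in MMTV-Wnt and reached 12.94 in Brca1-/-p53+/- tumor 1 and 9.56 in p53-/- tumor 7. All MMTV-Hras and MMTV-H2N values lay between 2.18 and 2.28, at the floor. The glands read 2.25, 2.45, 2.72, 7.16 and 4.32, so some of them were near the floor as well. The mean of 4 keratinised epithelium markers, 3 of them past the filter, was 7.54 in Brca1-/-p53+/- tumor 1 and 3.48 to 4.12 in the glands, and their part in its Col17a1 value was not tested.

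Each model was then set against the same 5 glands, so these comparisons share their controls. The glands were all FVB, so strain and model cannot be told apart for p53-/- and Brca1-/-p53+/-. For C3TAg 7 collagen genes were higher and 0 lower (29.5% and 18.5% of all genes), for p53-/- 5 and 0 (26.2% and 16.6%) and for Brca1-/-p53+/- 9 and 1 (16.0% and 16.2%). For MMTV-Hras 4 were higher and 4 lower (14.0% and 14.0%), for MMTV-H2N 4 and 2 (22.3% and 12.7%) and for MMTV-PymT 5 and 7 (20.3% and 12.3%). For MMTV-C-Myc 5 were higher and 0 lower (17.2% and 14.6%), and for MMTV-Wnt 9 and 0 (14.5% and 13.2%).

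**Figure D5:**
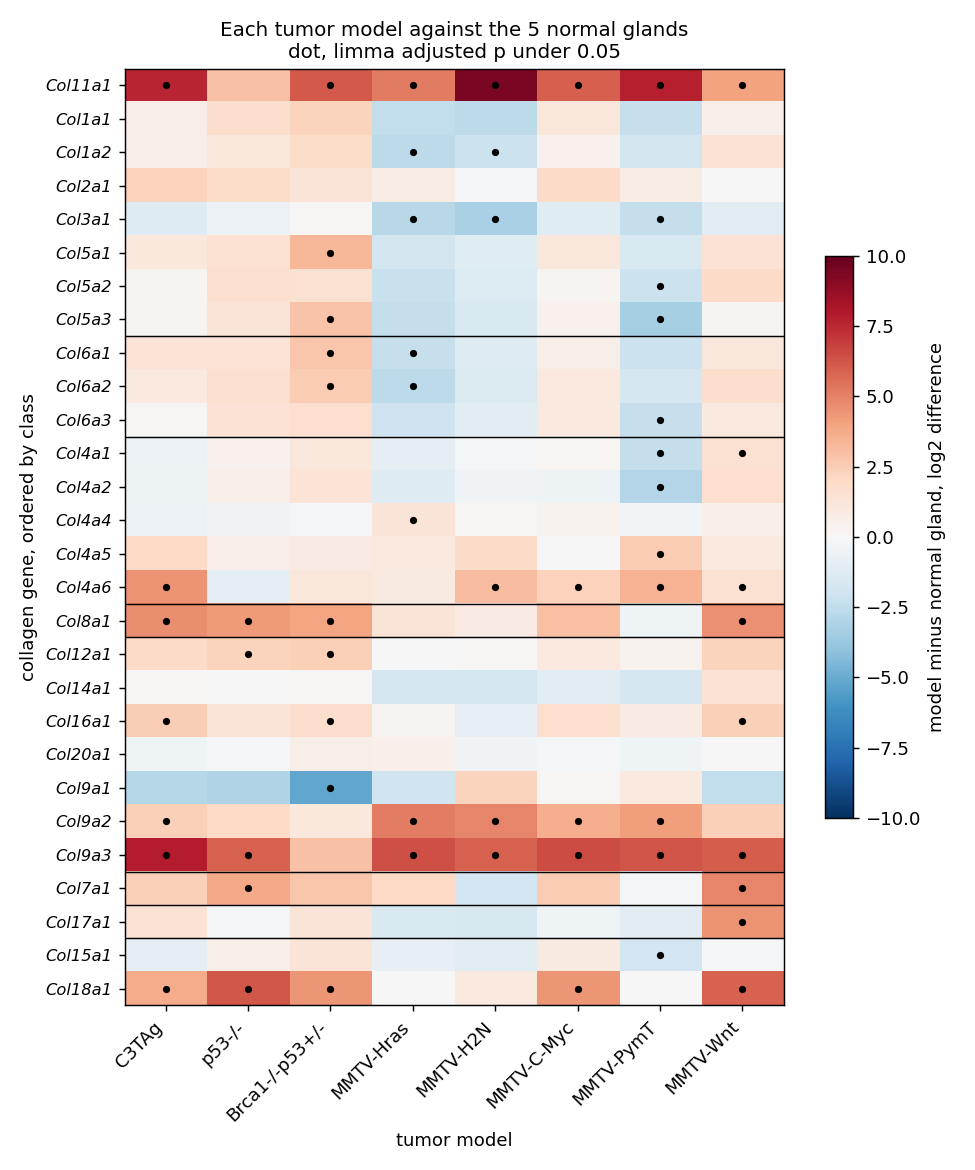
Log2 difference between each of 8 tumor models (horizontal axis) and the 5 normal glands for 28 collagen genes ordered by class with lines between classes (vertical axis), red for higher and blue for lower in the model, with a dot for limma adjusted p under 0.05. Col11a1 is called in 7 models, up to 9.45 in MMTV-H2N, and the only blue dots outside the 3 models MMTV-Hras, MMTV-H2N and MMTV-PymT mark Col9a1 in Brca1-/-p53+/-.

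Col11a1 was called higher in all models but p53-/-, from 4.05 in MMTV-Wnt (SE 1.55, limma adjusted p = 0.0463) to 9.45 in MMTV-H2N (SE 1.46, adjusted p = 3.67e-06). Col9a3 was called in all models but Brca1-/-p53+/-, at 5.87 in p53-/- to 7.83 in C3TAg. Because both sat near the floor in the glands, the size of these differences depends on that floor. Col18a1 was higher in C3TAg (3.72), Brca1-/-p53+/- (4.39), MMTV-C-Myc (4.43), MMTV-Wnt (5.89) and p53-/- (6.20), and Col4a6 in MMTV-Wnt (1.51), MMTV-C-Myc (2.31), MMTV-H2N (3.11), MMTV-PymT (3.50) and C3TAg (4.47).

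Some fibrillar and type VI genes were called lower. In MMTV-Hras these were Col1a2, Col3a1, Col6a1 and Col6a2 (-2.63, -2.79, -2.32 and -2.66). In MMTV-H2N they were the fibrillar Col1a2 and Col3a1 alone (-2.15 and -3.27). In MMTV-PymT they were Col3a1, Col5a2, Col5a3 and Col6a3 (-2.36, -2.18, -3.33 and -2.30). All lower calls made up 14.3% of members in MMTV-Hras, 7.14% in MMTV-H2N and 25% in MMTV-PymT. Of all genes 14.0%, 12.7% and 12.3% were lower in these models. MMTV-PymT also had lower Col4a1 (-2.35, SE 0.50, limma adjusted p = 0.000374), Col4a2 (-2.96, SE 0.61, adjusted p = 0.000232) and Col15a1 (-1.95). Brca1-/-p53+/- was the model in which chains of types V and VI rose, with Col5a1 (3.34), Col5a3 (2.83), Col6a1 (2.78) and Col6a2 (2.58) called. A fit without the 4 tumors of low luminal marker level left out its tumors 2, 3 and 4 and MMTV-Wnt tumor 3. It left Brca1-/-p53+/- with 2 arrays, and 9 of its 10 calls were lost. Only Col11a1 kept its call.

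Models also differed among themselves, again with strain and model not to be told apart for p53-/- and Brca1-/-p53+/-. By the F test over the 8 models 25 of 28 collagen genes differed, against 74.5% of all genes, the exceptions being Col2a1, Col4a5 and Col9a3 (adjusted p = 0.253). Each of the 28 collagen genes was compared in each of the 8 models with the mean of the other 7. Of these gene and model pairs 28 were higher and 37 lower. Over all genes 10.1% of such pairs were higher and 8.29% lower. MMTV-PymT contributed 14 lower and 1 higher (6.9% lower and 10.96% higher of all genes) and MMTV-Hras 10 and 2 (14.81% and 9.64%). MMTV-H2N contributed 7 lower and 3 higher (9.09% and 16.12%) and Brca1-/-p53+/- 3 and 10 (11.89% and 6.74%). For p53-/- there were 2 lower and 4 higher (5.7% and 10.57%), for C3TAg 1 and 2 (9.43% and 19.48%) and for MMTV-Wnt 0 and 6 (3.7% and 2.64%). As shares of the collagen genes, the higher counts of MMTV-PymT, MMTV-Hras, MMTV-H2N and C3TAg fell under those of all genes. So did the lower counts of Brca1-/-p53+/-, C3TAg and MMTV-Wnt. No member was called for MMTV-C-Myc (4.81% lower and 4.79% higher of all genes).

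The members furthest from the other models were read model by model, and Col18a1 and Col4a6 each came up in more than 1 model. In C3TAg the furthest higher member was Col4a6 (2.84, SE 0.40, limma adjusted p = 1.08e-06), and Col4a4 was lower (-0.79, adjusted p = 0.03), a call lost without tumor 1 (-0.83, adjusted p = 0.0514), 4 (-0.64, adjusted p = 0.129) or 5 (-0.78, adjusted p = 0.0624). In p53-/- Col18a1 was higher (3.44, SE 0.75, adjusted p = 0.00122) and Col11a1 lower (-3.63, SE 0.96, adjusted p = 0.00744). Col4a6 was nearly as far down there (-3.43, SE 0.35, adjusted p = 3.03e-09). In MMTV-H2N Col9a1 was higher (4.25, SE 1.25, adjusted p = 0.0108) and Col7a1 lower (-4.51, SE 0.90, adjusted p = 0.000271). In MMTV-PymT Col4a6 was higher (1.72, SE 0.37, adjusted p = 0.00157) and Col18a1 lower (-3.69, SE 0.80, adjusted p = 0.00151). Among FVB arrays alone, against the other FVB models only, Col4a6 was not called there (1.04, adjusted p = 0.061).

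In MMTV-Hras Col18a1 was 3.67 lower on the log2 scale than in the other models (difference -3.67, SE 0.86, limma adjusted p = 0.00182) and Col9a2 higher (2.19, SE 0.74, adjusted p = 0.0264), the latter lost without tumor 2 (2.13, adjusted p = 0.066), 3 (2.07, adjusted p = 0.069) or 4 (1.81, adjusted p = 0.107), and without the 4 tumors of low luminal marker level (1.91, adjusted p = 0.054). In MMTV-Wnt Col17a1 was higher (4.75, SE 1.27, adjusted p = 0.0162), lost without tumor 1 (3.92, adjusted p = 0.142), 2 (4.18, adjusted p = 0.0755) or 4 (4.43, adjusted p = 0.077). In Brca1-/-p53+/- Col5a3 was higher (3.54, SE 0.76, adjusted p = 0.00146) and Col9a1 lower (-4.18, SE 1.25, adjusted p = 0.0169), the latter lost without tumor 3 (-3.04, adjusted p = 0.105) or 4 (-3.44, adjusted p = 0.089). Without the tumors of low luminal marker level all 13 calls of Brca1-/-p53+/- were lost, with Col5a3 at 1.53 (adjusted p = 0.418), Col9a1 at -0.97, and Col9a3 turned from -3.47 to 0.82.

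Against the gland, counts for the genes around the collagens stand beside the 24.2% higher and 17.1% lower of all genes given above. Of 17 biosynthesis genes 5 were higher and 2 lower in the mean of the models, led by Plod2 (5.20), a lysyl hydroxylase that prepares cross-links, P4ha1 (3.41) and P3h4 (2.16). Of 8 processing genes 2 were higher, Loxl3 (3.11) and Bmp1 (2.11), the procollagen C-proteinase, and 0 lower. Of 7 receptor genes 2 were higher, Ddr1 (1.22), the epithelial collagen receptor kinase, and Itgb1 (0.77), and 0 lower. The shares of higher genes in these 3 lists lay near that of all genes. Of 7 proteoglycans 6 were lower and 0 higher, with Ogn (-4.88), Fmod (-4.05) and Dcn (-3.81) first.

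The glands differed from the models in their other tissue as well. All 10 skeletal muscle and all 6 adipocyte markers were lower in the models, led by Tnnt3 (-7.19), Acta1 (-6.94), Tnni2 (-6.56), Adipoq (-9.02), Cidec (-8.44) and Pck1 (-8.37). Of 11 fibroblast markers 5 were lower, led by Dpt (-5.42), Pi16 (-4.43) and Dcn (-3.81), which with Lum stands in the proteoglycan list too, and 6 of 9 myoepithelial markers were lower and 1 higher. Of 10 endothelial markers 3 were lower, of 7 mural markers 1, of 9 luminal markers 2 were lower and 2 higher, of 9 macrophage markers 1 was lower and 4 higher, and of 3 keratinised epithelium markers 0 were called. Over all genes 17.1% were lower and 24.2% higher, so the mural and luminal counts stood near the share of all genes. The part of these tissues in the differences of collagen genes from the gland was not tested.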

How the data were processed

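The authors computed GC-RMA values with Partek from GCOS scans of Affymetrix mouse arrays and deposited them on the log2 scale, after removing probe sets that MAS5 called present or marginal in fewer than 3 samples. Versions and scan dates are not given in the sources used here. GC-RMA sets unexpressed probe sets near 2, so a fold from there depends on that floor. Arrays have no depth: the 4 to 7 arrays of a group limit precision.

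Groups came from the sample titles, and basal-type and luminal-type from the study. Per the study's methods the tumors came from individual mice. Of 18586 probe sets, 16962 had a single gene in the platform annotation, and 16941 of these matched RefSeq by gene ID. Collagen genes had 47 probe sets, 15 genes more than 1. The class comparison was fitted over 41 tumors, and all other comparisons over 9 groups of 46 arrays, with lmFit and eBayes of limma 3.58.1 in R 4.3.3 and statmod 1.5.0 for random blocks. Code was tested on simulated data. Figures used matplotlib 3.10.9. A 95% interval is limma's.

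Members and gene lists were chosen with earlier results of these data known. The rule named every member called between classes, the 6 per direction furthest from the gland, for each model the called member per direction furthest from the others, and 3 called genes per list. Other members given with values, and the marker level under 9 that set 4 tumors apart, were chosen after their values were seen. Alternatives covered scaling, filter, probe set choice, array weights, blocks, strain and leaving out arrays.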

Additional observations from a re-analysis of the deposited data

Results flagged for a closer look

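In 29 of 252 sets of 1 gene in 1 group (11.5%), a single array stood apart by Dixon's test. For normally distributed values chance does so in about 1 in 20. Sets near the floor need not follow that rate, and the sets share arrays, so no excess over chance is read from the count. Low arrays in Brca1-/-p53+/- were all tumor 5, at 10.94 for Col3a1, 8.16 for Col4a2, 6.01 for Col6a2 and 5.12 for Col6a3, and the same tumor was high for Col9a2 (7.65). Other low arrays were MMTV-H2N 1 for Col3a1 (9.07), MMTV-Hras 4 for Col5a1 (3.97), MMTV-PymT 6 for Col5a2 (4.13), MMTV-Wnt 3 for Col4a1 (12.40), MMTV-C-Myc 4 for Col8a1 (4.36), MMTV-Hras 5 and MMTV-Wnt 3 for Col9a1 (3.94 and 3.94) and gland 2 for Col14a1 (6.49).

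High arrays for Col2a1 were Brca1-/-p53+/- 1 (8.39), MMTV-Hras 2 (5.79) and MMTV-PymT 5 (7.22). The test also picked MMTV-H2N 4 for Col2a1, but its 2.19 lay at the floor like the rest of its group. For Col4a4 they were Brca1-/-p53+/- 2 (4.29), MMTV-C-Myc 2 (5.67) and gland 3 (4.67). Col17a1 was high in p53-/- 7 (9.56), MMTV-C-Myc 2 (6.45) and MMTV-PymT 4 (4.45), and Col9a3 in MMTV-H2N 1 (9.88) and MMTV-PymT 5 (10.24). Col7a1 was high in MMTV-PymT 6 (5.83) and above its group, though near the floor, in MMTV-H2N 4 (2.63). Col8a1 was high in MMTV-H2N 4 (5.89) and Col20a1 in gland 1 (3.76).

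For 4 genes 1 model was called above the glands and another below them. These pairs of models were chosen for those calls, so the differences between them are a description with no test. They were 6.16 for Col5a3 between Brca1-/-p53+/- and MMTV-PymT, 3.85 for Col4a1 between MMTV-Wnt and MMTV-PymT, and 5.10 for Col6a1 and 5.23 for Col6a2 between Brca1-/-p53+/- and MMTV-Hras.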

How the results depend on the processing

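The class counts of 13 higher and 3 lower collagen genes became 4 and 0 among FVB arrays alone, where 19.1% of all genes were higher and 8.91% lower, and 0 and 0 when the model was a random block. Quantile normalization and centring left them at 13 and 3. A fit of 9 groups with models weighted equally gave 18 and 4, against 21.0% higher and 16.5% lower of all genes. It added Col4a1, Col7a1, Col14a1, Col15a1 and Col16a1 as higher and Col4a6 as lower. This fit sets the class difference against the spread of tumors within models, so its added calls do not make the class result stronger. Of the alternatives, only this fit, FVB arrays alone and the random block had shares of all genes taken, for the class counts. Array weights also gave 18 and 4. Leaving out 1 array gave 12 to 17 higher and 3 lower, and leaving out the 4 tumors of low luminal marker level, an alternative chosen after seeing the data, gave 12 and 3. Pairs of gene and model lower than the gland numbered 14, but 22 with array weights and 35 when only the 2 groups compared entered a fit, and leaving out 1 array gave 8 (gland 3) to 20. Pairs higher than the other models numbered 28, and 27 among FVB arrays alone. There each of 6 models was set against the other FVB models only. Over all arrays, against all other models, the same 6 models had 14. The count of genes lower in the mean of the models was 1, and 0 to 1 when 1 array was left out, with 0 without gland 3, 4 or 5.

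Replicate numbers did not pair the arrays. Deviations of same-numbered arrays correlated at 0.0147 on average (-0.32 to 0.44 over 166 pairs), and 11 of 46 arrays correlated best with their own number. With the replicate number as a block, 12 collagen genes were higher and 3 lower between classes, Col4a2 losing its call, 7 higher and 1 lower in the models than in the glands, 45 and 12 pairs against the gland, 29 and 36 pairs against the other models, and 25 genes differed by the F test. Precision was limited by 4 to 7 arrays in a group, and signals near 2 hold no measured level. No result named by the rule turned its direction under an alternative run on it. The causes of the changes were not tested.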
